A study of Homo sapiens with 3 samples.

Results

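The genes described here encode collagens, other proteins of the extracellular matrix and the enzymes that modify collagen, measured in UM-UC-3 cells after knockdown of WDR5. The 37 genes were chosen by name, with earlier results of these data known, and every probe set annotated to 1 of them alone was used. Of these, 36 genes had such probe sets, 141 in all, out of 18155 genes on the array. COL17A1 had no such probe set, so its expression was not analysed here, but its promoter window was counted. UM-UC-3 is an established human bladder cancer cell line, and WDR5 is a core subunit of the complexes that methylate lysine 4 of histone H3. Cells received 75 nM of a control siRNA or of 1 of 2 siRNAs against WDR5, named si-WDR5-2 and si-WDR5-3. RNA was taken at 48 h and hybridized to Affymetrix PrimeView arrays, 1 array per condition. With 1 array per condition, a difference between conditions could not be set against a spread between cultures, and the ratios to the control share 1 control array.

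Collagens are built from 3 chains wound around each other. The chains are hydroxylated in the endoplasmic reticulum by prolyl hydroxylases (P4HA1, P4HA2) and lysyl hydroxylases (PLOD1, PLOD2, PLOD3), secreted, and cross-linked outside the cell by lysyl oxidases (LOX, LOXL1, LOXL2). Fibrillar collagens form the fibers of the stroma, while collagen IV, nidogens and perlecan form the sheet of the basement membrane on which epithelia such as the urothelium rest. Fibronectin (FN1) and periostin (POSTN) are secreted glycoproteins that bind cells and collagen. HAS2 makes hyaluronan, a long sugar polymer of the matrix.

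The siRNAs are shown because each stands for the only array of its condition. Capitals mark the 19 paired bases and lower case the overhang. By the labels, the target position of si-WDR5-2 in WDR5 is 999, and that of si-WDR5-3 is 585.
control siRNA: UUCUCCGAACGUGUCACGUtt
si-WDR5-2: GCUCAGAGGAUAACCUUGUtt
si-WDR5-3: CCCAGUCCAACCUUAUUGUtt

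The collagen IV genes lie in head-to-head pairs, in which both genes start from a common stretch of DNA and are read in opposite directions. In RefSeq (GRCh38.p14), 126 bases separate the start sites of COL4A1 and COL4A2, and 379 bases those of COL4A6 and COL4A5. The first sequence is the whole stretch between COL4A1 and COL4A2, at chr13:110307158-110307283 on the plus strand, read toward COL4A2. The others are the 250 bases before the start sites of COL4A5 (chrX:108439588-108439837, plus strand), FN1 (chr2:215436069-215436318, minus strand) and POSTN (chr13:37598769-37599018, minus strand). They are shown because COL4A1, COL4A5, FN1 and POSTN are among the genes with values of at least 1.5 times the control on both siRNA arrays, described further on. The array itself names no genome build. Capitals mark 3 motifs, each searched on both strands. One is CCAAT, the box to which the factor NF-Y binds. Another is GGGCGG, the GC box known as a binding site of Sp1. The last is TATAAA, the TATA box found near the start sites of some genes.
COL4A1-COL4A2: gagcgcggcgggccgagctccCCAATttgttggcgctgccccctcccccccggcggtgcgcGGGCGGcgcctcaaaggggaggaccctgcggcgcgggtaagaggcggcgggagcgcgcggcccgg
COL4A5: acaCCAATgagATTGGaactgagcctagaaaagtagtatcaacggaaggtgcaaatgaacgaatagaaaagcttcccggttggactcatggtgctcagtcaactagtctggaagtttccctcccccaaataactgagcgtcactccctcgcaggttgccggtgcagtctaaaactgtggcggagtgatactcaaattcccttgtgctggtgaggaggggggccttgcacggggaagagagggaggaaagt
FN1: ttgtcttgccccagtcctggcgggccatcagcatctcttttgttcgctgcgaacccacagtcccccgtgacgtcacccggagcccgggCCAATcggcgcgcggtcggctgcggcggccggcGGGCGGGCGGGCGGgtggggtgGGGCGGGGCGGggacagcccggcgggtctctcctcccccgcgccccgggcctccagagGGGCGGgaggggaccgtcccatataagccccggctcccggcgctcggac
POSTN: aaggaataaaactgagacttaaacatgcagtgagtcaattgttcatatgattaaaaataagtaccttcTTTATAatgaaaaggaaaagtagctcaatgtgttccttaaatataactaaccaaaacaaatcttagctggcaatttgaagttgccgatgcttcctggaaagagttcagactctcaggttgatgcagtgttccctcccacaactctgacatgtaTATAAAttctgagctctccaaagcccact

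The stretch between COL4A1 and COL4A2 holds 1 CCAAT and 1 GGGCGG. The COL4A5 window holds CCAAT once on each strand, and the FN1 window holds 1 CCAAT and 6 copies of GGGCGG, some overlapping. The POSTN window holds TATAAA on each strand. Among all 35116 windows of 250 bases before a start site, 32.0% hold CCAAT, 42.6% GGGCGG and 10.7% TATAAA. Of 34 windows of 29 members, 13 (38.2%) hold CCAAT, 22 (64.7%) GGGCGG and 7 (20.6%) TATAAA. These windows are not all separate stretches, since those of the collagen IV pairs overlap and LOX has 3 windows. A match describes the letters only.

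The first of 2 WDR5 probe sets had an intensity of 1013 in the control, 204 after si-WDR5-2 and 315 after si-WDR5-3, and the second had 947, 218 and 306. These were 0.201 and 0.231 times the control with si-WDR5-2, and 0.311 and 0.323 times with si-WDR5-3. The labels give lower WDR5 levels, 0.06 for si-WDR5-2 and 0.14 for si-WDR5-3. The median intensity of the arrays was between 149.9 and 151.2, and the lowest value was 45.5. Probe sets were kept when the geometric mean over the 3 arrays reached 152, which is the median of this mean over the whole array. Gene values are medians of the log2 ratios over kept probe sets. Of 14 urothelial and epithelial markers on the array, 7 had a kept probe set. KRT18, a keratin of simple epithelia, had intensities of 1052 to 2155. The other 6 with a kept probe set, KRT5, KRT7, KRT8, UPK1A, UPK1B and UPK3A, had highest intensities from 169 (UPK3A) to 276 (KRT5). The remaining 7, KRT19, KRT20, UPK2, GATA3, PPARG, EPCAM and CDH1, lay below the filter, EPCAM at 58.6 to 64.3 and CDH1, E-cadherin, at 98.4 to 106.02. Of 6 mesenchymal markers, 3 had a kept probe set. The filament gene VIM had intensities of 7727 to 10126, ZEB1 of 231 to 1304 and CDH2 of 141 to 319. ZEB2, TWIST1 and SNAI2 had no kept probe set. Of 6 fibroblast markers, THY1 (up to 385) and PDGFRB (up to 244) had kept probe sets, while DCN, LUM, FAP and PDGFRA were below the filter. Thus part of the urothelial, the mesenchymal and the fibroblast markers were past the filter and part were not.

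The matrix genes COL4A1, COL4A5, COL5A1, FN1, POSTN and HAS2 (6 genes) reached 1.5 times the control after either WDR5 siRNA, and no member was at or below 0.667 times with both. Their ratios were 1.54 to 2.27 for si-WDR5-2 and 1.58 to 1.84 for si-WDR5-3. Of all 11501 genes with a kept probe set, 1.19% reached 1.5 times on both siRNA arrays and 0.365% were as far below the control. Because the members were chosen with earlier results of these data known, no share of all genes given here tests the members as a group. With si-WDR5-2, 7 members, COL4A6 in addition, reached 1.5 times the control (5.00% of all genes) and 0 lay at or below 0.667 times (3.35% of all genes). With si-WDR5-3, 7 members, COL13A1 in addition, reached 1.5 times (2.34% of all genes) and 0 were as far below (1.57% of all genes). Of the 37 members, 27 had a kept probe set, and their median log2 ratio to the control was 0.02 for the former siRNA and 0.22 for the latter, against -0.02 and -0.00092 over all genes.

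**Figure D1:**
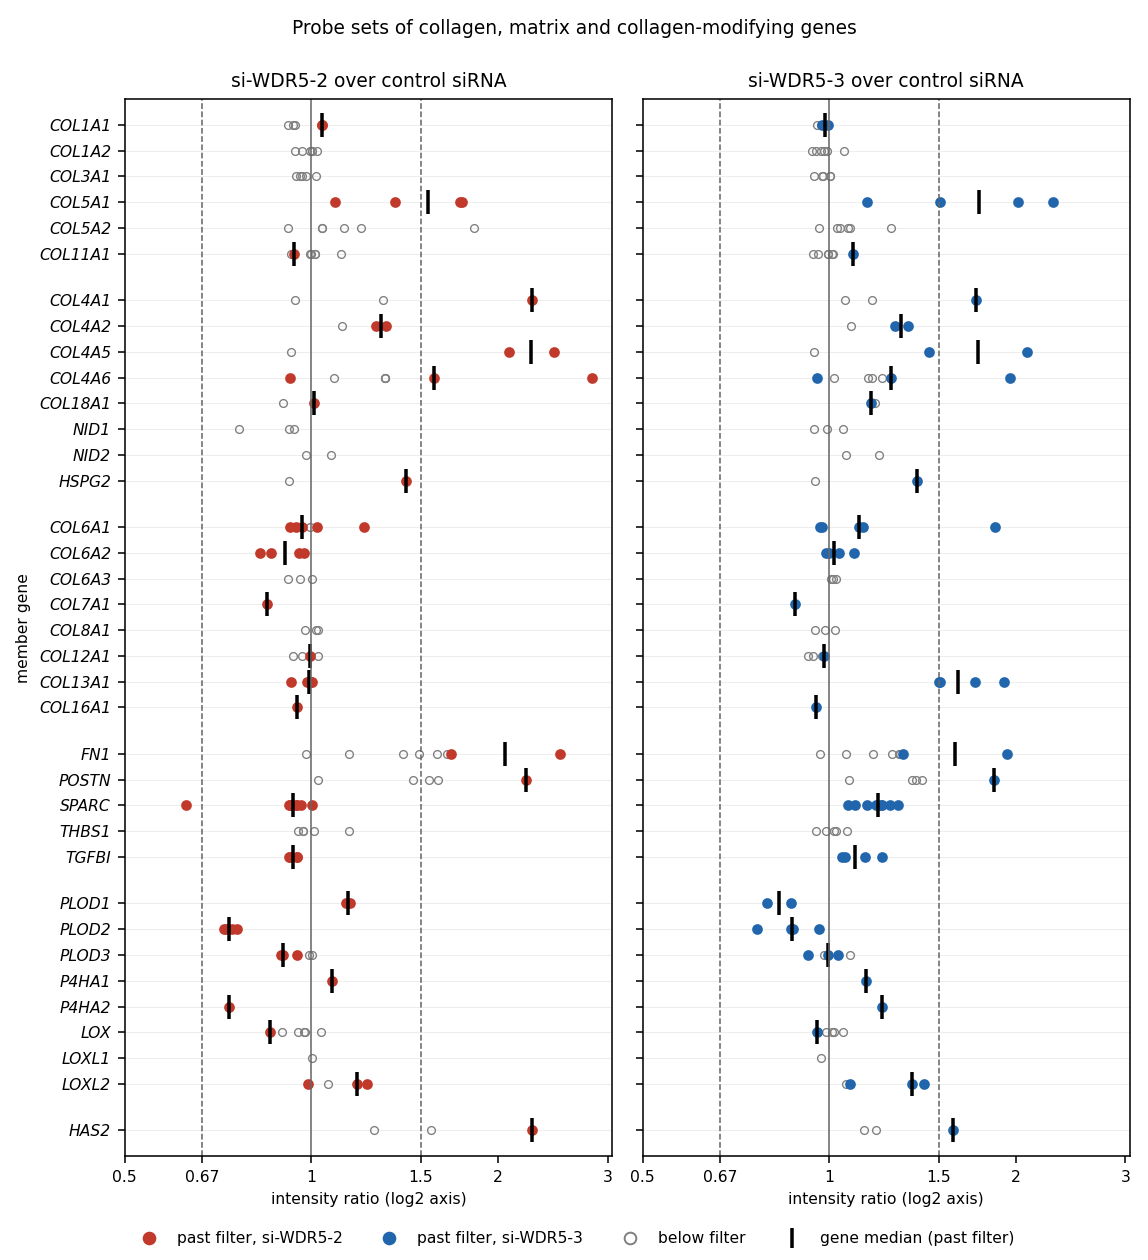
Ratio of array intensity to control siRNA (log2 axis) for every probe set of the 36 members on the array, with si-WDR5-2 on the left and si-WDR5-3 on the right. Filled points are probe sets past the filter, open points are below it, black bars are gene medians and dashed lines mark 1.5 and 0.67 times. COL4A1, COL4A5, COL5A1, FN1, POSTN and HAS2 have medians past 1.5 in both panels, COL4A6 only on the left and COL13A1 only on the right.

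The count of 6 rests on the filter, since all of these genes except COL5A1 also had dim probe sets with lower ratios. Without the filter COL5A1 alone had a median past 1.5 times with both siRNAs, against 0.512% of all genes. With the filter at the 75th percentile, where 13 members remained, COL4A1 and COL4A5 did, against 2.23% of all genes. The kept probe sets of POSTN and HAS2 had control intensities below 152 and passed through their higher values with the WDR5 siRNAs. A filter on the control array alone therefore left 4 genes, against 1.13% of all genes. Counted by probe set with no filter, 8 of the 141 member probe sets reached 1.5 times on both siRNA arrays, against 0.803% of all probe sets with 1 gene symbol. None was as far below it, against 0.240% of all. These 8 probe sets belong to COL4A1, COL4A5, COL4A6, COL5A1, FN1, POSTN and HAS2. When both siRNA arrays were taken as samples of knockdown in limma, 0 of the 64 kept member probe sets passed an adjusted p of 0.05 (lowest 0.999). With 1 control array and 1 residual degree of freedom, nothing is read from the counts at an unadjusted p under 0.05, which were 11 higher (3.21% of kept probe sets) and 0 lower (1.24%). Of the 11, those of POSTN, HAS2, COL4A6 and COL4A2 had control intensities below 152 and passed the filter through the siRNA arrays.

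**Figure D2:**
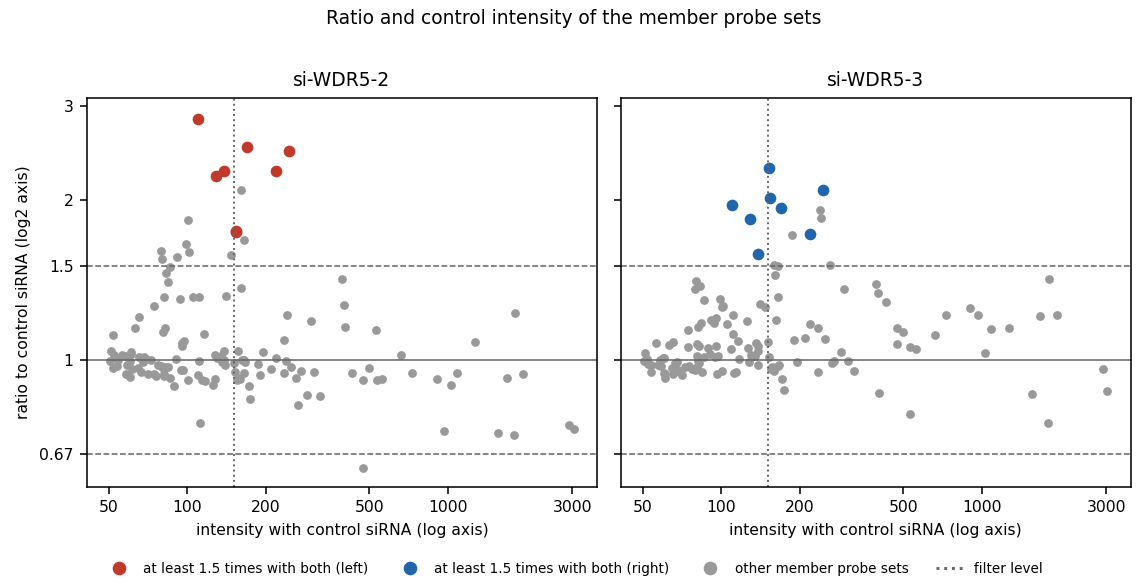
Ratio to control siRNA (log2 axis) against intensity with control siRNA (log axis) for the 141 member probe sets, 1 point each, for si-WDR5-2 (left) and si-WDR5-3 (right). Colored points are the 8 probe sets that reached 1.5 times on both arrays, all with control intensities of 110 to 247, near the filter level of 152 (dotted).

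Of the basement membrane genes, COL4A1 and COL4A5 reached 1.5 times the control on both siRNA arrays. COL4A1, a chain of the collagen IV network found in all basement membranes, had intensities of 218, 495 and 376 in its kept probe set, in the order control siRNA, si-WDR5-2, si-WDR5-3, which is used throughout. These are 2.27 and 1.72 times the control. Its other probe sets, which were dim, were at 1.30 and 1.17 times and at 0.940 and 1.06 times. COL4A2, whose chain assembles with COL4A1, had intensities of 398, 506 and 533 in its brighter kept probe set, or 1.27 and 1.34 times the control. Its other kept probe set had intensities of 141, 185 and 179. COL4A2 was thus above the control on both arrays in both kept probe sets, but below 1.5 times.

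COL4A5, a chain of collagen IV in kidney and other specialized basement membranes, was measured by 2 kept probe sets. One had intensities of 247, 607 and 513, and the other 161, 336 and 233. The ratios were 2.46 and 2.08 times for the first and 2.08 and 1.45 times for the second. COL4A6, the head-to-head partner of COL4A5, had 3 kept probe sets that differed widely. They had intensities of 109.7, 311 and 214, of 148, 233 and 186, and of 159, 147 and 152. The ratios with si-WDR5-2 were therefore 2.84, 1.57 and 0.923, with a median of 1.57, and with si-WDR5-3 they were 1.95, 1.26 and 0.955. With a filter on the control array alone only the last of the 3 probe sets remained.

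Perlecan (HSPG2), a heparan sulfate proteoglycan of basement membranes, had intensities of 393, 559.5 and 546 in its kept probe set, 1.42 and 1.39 times the control. The ID of this probe set ends in _x_at, a kind in which some probes match other sequences. Without such probe sets HSPG2 had none past the filter. Its dim probe set lay at 0.920 and 0.949 times. COL18A1, the source of endostatin, was at 1.01 and 1.17 times. The nidogens NID1 and NID2, which link laminin and collagen IV, lay below the filter, at intensities of 85.3 to 148 over their 5 probe sets. Thus the collagen IV genes and HSPG2 were above the control with both siRNAs by their gene medians. Of the 8 genes of this group, 6 had a kept probe set and 2 reached 1.5 times with both, against 1.19% of all genes.

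**Figure D3:**
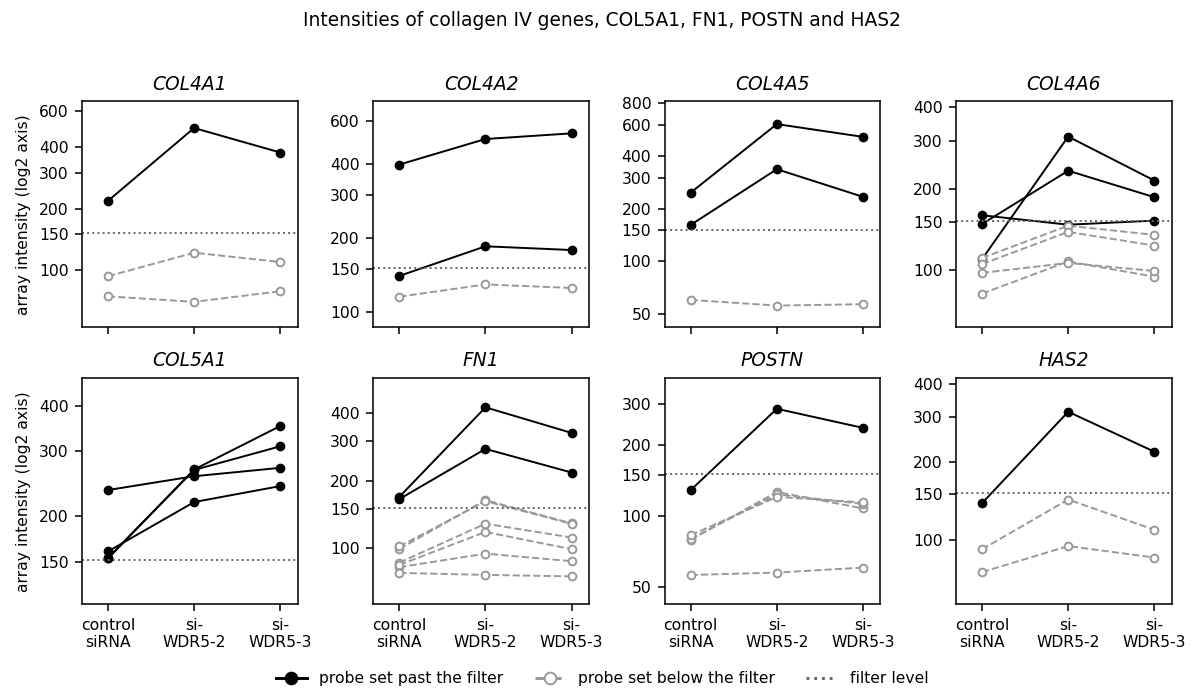
Array intensity (log2 axis) with control siRNA, si-WDR5-2 and si-WDR5-3 for each probe set of the collagen IV genes, COL5A1, FN1, POSTN and HAS2, with 1 line per probe set and no replicate arrays. Solid lines are probe sets past the filter, dashed lines are below it, and the dotted line is the filter level of 152. Intensities of different probe sets are not comparable with each other.

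Among the matrix glycoproteins, fibronectin (FN1) had intensities of 169, 425 and 327 in the kept probe set with the higher ratios. Its other kept probe set had 165, 277 and 218. The gene medians were 2.05 and 1.59 times the control. Its 6 dim probe sets ranged from 0.980 to 1.65 times and from 0.965 to 1.30 times, and 7 of its 8 probe sets were above the control on both arrays. Periostin (POSTN) had intensities of 129, 286 and 237 in its kept probe set, 2.22 and 1.84 times the control. In its 4 dim probe sets the ratios were 1.02 to 1.60 for si-WDR5-2 and 1.07 to 1.41 for si-WDR5-3. HAS2 had intensities of 138, 313 and 219 in its kept probe set, 2.26 and 1.58 times the control, and its dim probe sets were at 1.56 and 1.19 times and at 1.26 and 1.14 times. For these 3 genes all probe sets but 1 of FN1 were thus above the control on both arrays, and the dim probe sets had lower ratios than the kept ones.

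SPARC and TGFBI, a collagen-binding glycoprotein and a TGF-beta-induced adhesion protein, were measured at higher intensities. The probe set of SPARC with the highest intensities had 1941, 1829 and 2361. The gene medians were 0.935 and 1.20 times the control, and all 8 probe sets were higher with si-WDR5-3 than with si-WDR5-2. One probe set of SPARC was at 0.627 times with si-WDR5-2, apart from the other 7, at 0.920 to 1.00 times. TGFBI had intensities of 1080.4, 1022 and 1234 in its brightest probe set, and medians of 0.934 and 1.10 times over 4 probe sets. Neither gene reached 1.5 times in either direction. THBS1, an activator of latent TGF-beta, was below the filter in all 5 probe sets, at 62.9 to 133.

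Of 6 fibrillar collagens, 3 had a kept probe set and 1 reached 1.5 times with both siRNAs, against 1.19% of all genes. COL5A1, which starts and limits the width of collagen I fibrils, had 4 kept probe sets. Their intensities were 154, 267 and 309.8 in the first, 153, 268 and 352 in the second, 160.2, 218 and 241 in the third and 235, 257 and 271 in the last. Every probe set was higher than the control on both arrays, with ratios of 1.09 to 1.75 and of 1.15 to 2.30. The gene median was 1.54 and 1.74 times, and that of the brightest probe set was 1.09 and 1.15 times. Alone among the 6 genes past the limit with both siRNAs, it had the higher median with si-WDR5-3.

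The chains of collagens I and III, the main collagens of stroma, were measured at low intensities. COL1A1 had 2 kept probe sets at intensities of 196, 203 and 194 and of 157, 164 and 153, with ratios of 0.973 to 1.04 times the control over both arrays. COL1A2 and COL3A1 were below the filter in all their probe sets, at 53.0 to 134 and at 50.3 to 96.8. COL5A2, the partner of COL5A1, was below the filter in 6 probe sets, and 1 of them had intensities of 101, 184 and 127. COL11A1 was at 0.937 and 1.09 times the control in 1 kept probe set. Over its probe sets COL1A2 was at 0.942 to 1.02 times the control with si-WDR5-2 and at 0.938 to 1.06 times with si-WDR5-3. COL3A1 was at 0.943 to 1.02 and at 0.943 to 1.00 times. The filter level is not a detection limit, and whether these transcripts were detected was not tested.

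COL13A1, a transmembrane collagen of cell adhesion sites, was high on the si-WDR5-3 array alone. Its 4 probe sets, all kept, had intensities of 239, 238 and 456, of 261, 242 and 394, of 188, 185 and 322 and of 165, 165 and 248. The ratios were 0.926 to 1.00 with si-WDR5-2, and all 4 reached 1.5 times with si-WDR5-3, up to 1.91. The si-WDR5-2 array was thus within 1.1 times of the control at every probe set, and the si-WDR5-3 array was above both.

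Collagen VI, which forms beaded filaments near cells, was at 0.967 and 1.11 times the control for COL6A1 and at 0.906 and 1.02 times for COL6A2. One of 5 kept probe sets of COL6A1 had intensities of 242, 295 and 448, a ratio of 1.85 times with si-WDR5-3. The remaining 4 were at 0.966 to 1.13 times on that array. COL6A3 was below the filter at 90.8 to 118. COL7A1, the anchoring fibril collagen, was at 0.846 and 0.879 times, COL12A1 at 0.994 and 0.979 times and COL16A1 at 0.946 and 0.950 times, each in 1 kept probe set. COL12A1 and COL16A1 belong to the collagens that associate with fibrils. COL8A1 was below the filter at 51.3 to 137. Apart from COL13A1, no gene of this group with a kept probe set differed from the control by 1.5 times. Of all genes, 5.00% were as far above and 3.35% as far below with si-WDR5-2, and 2.34% and 1.57% with si-WDR5-3.

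Of 8 collagen-modifying enzymes, 7 had a kept probe set, and none of these was 1.5 times above or below the control with either siRNA. The shares of all genes were 5.00% above and 3.35% below with si-WDR5-2, and 2.34% and 1.57% with si-WDR5-3. PLOD2, the lysyl hydroxylase of collagen telopeptides, had intensities of 3032, 2256 and 2654 in its brightest probe set. Its 4 probe sets had ratios of 0.724 to 0.757 for si-WDR5-2 and of 0.764 to 0.962 for si-WDR5-3, so all were below the control on both arrays. PLOD1 lay on either side, with intensities of 531, 604 and 422 in one probe set and 403, 465 and 349 in the other, or 1.15 and 0.830 times by the median. PLOD3, which also adds sugars to hydroxylysine, was at 0.898 and 0.996 times.

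P4HA2, a catalytic subunit of collagen prolyl 4-hydroxylase, had intensities of 966, 713 and 1175 in its only probe set, or 0.738 and 1.22 times the control. P4HA1, another catalytic subunit, was at 1271, 1373 and 1458, or 1.08 and 1.15 times. LOX had intensities of 322, 276 and 307 in the 1 kept of its 6 probe sets, or 0.858 and 0.954 times the control. Without the filter its medians were 0.961 and 1.00 times. LOXL1 was below the filter at 70.3 to 72.5. LOXL2 had 1803, 2215 and 2559 in its brightest probe set. Its medians over 3 probe sets were 1.18 and 1.36 times the control, and 1 of these probe sets was at 0.989 times with si-WDR5-2. Of the lysyl oxidases, LOXL2 was thus above the control with both siRNAs by its medians. LOX was below it in 1 kept probe set, and both differed by less than 1.5 times.

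**Figure D4:**
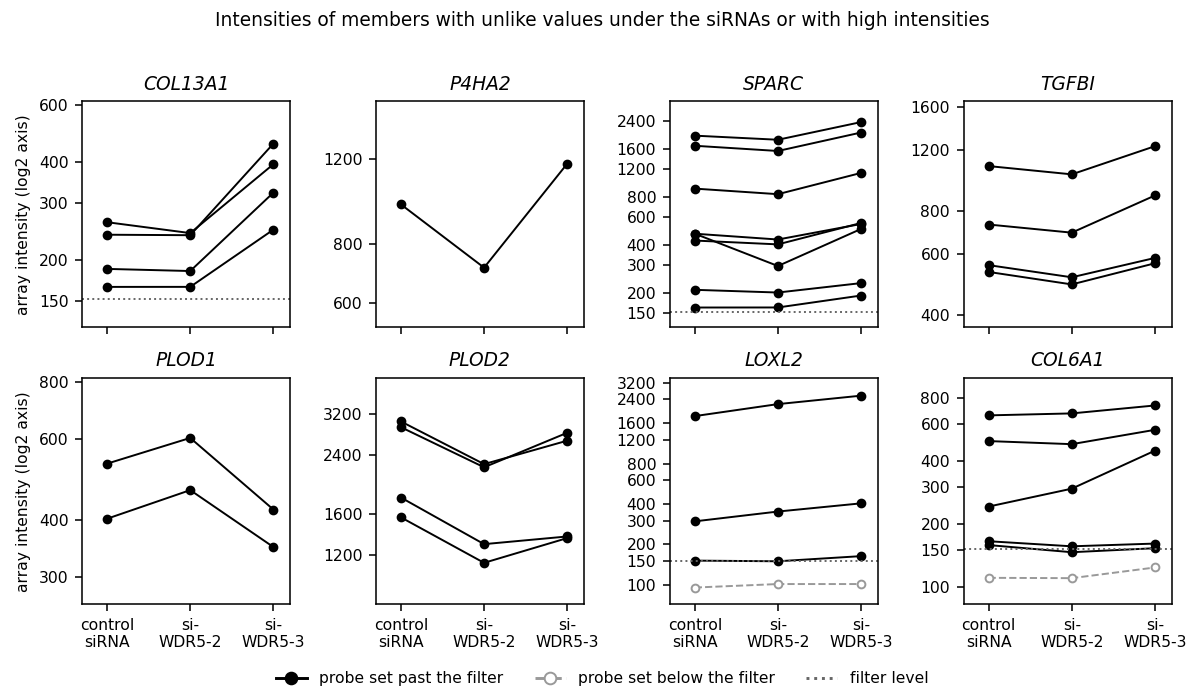
Array intensity (log2 axis) with control siRNA, si-WDR5-2 and si-WDR5-3 for each probe set of COL13A1, P4HA2, SPARC, TGFBI, PLOD1, PLOD2, LOXL2 and COL6A1, with 1 line per probe set and no replicate arrays. All 4 lines of COL13A1 turn upward at si-WDR5-3 alone, the line of P4HA2 passes from 966 through 713 to 1175, and all 4 lines of PLOD2 lie lower with both WDR5 siRNAs than with control siRNA.

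When the WDR5 siRNAs were set against each other, COL13A1 was at 0.593 times with si-WDR5-2 relative to si-WDR5-3 and P4HA2 at 0.606 times. These were the 2 members at or below 0.667 times, against 3.08% of all genes, and 0 members reached 1.5 times, against 3.53%. All 8 probe sets of SPARC were lower with si-WDR5-2 than with si-WDR5-3, at 0.586 to 0.873 times, and so were the 4 of TGFBI, at 0.780 to 0.879 times. HAS2 (1.43 times), PLOD1 (1.38 times), COL4A1 (1.32 times) and COL4A5 (1.30 times) lay in the other direction. As each siRNA has 1 array, these differences were not tested.

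The members just inside and outside the 1.5-fold limit were close to each other. COL5A1 at 1.54 times with si-WDR5-2 and HAS2 at 1.58 times with si-WDR5-3 were the lowest inside it on each array. The highest outside were HSPG2 at 1.42 times on the former array and 1.39 times on the latter.

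Other genes of matrix production were examined from lists. Of 24 further collagens on the array 5 had a kept probe set. COL23A1, a transmembrane collagen, was the one that reached 1.5 times. It was at 1.75 times for si-WDR5-2, where 5.00% of all genes reached the limit, and at 1.44 times for si-WDR5-3. Its 1 probe set had a control intensity of 121, below 152, and passed the filter through the siRNA arrays. Of 24 genes of collagen folding, processing and export past the filter, none met the limit with both siRNAs. Of all genes, 1.19% were higher and 0.365% lower with both. SEC23A, a COPII coat subunit, was the one gene past it with a single siRNA, at 0.624 times with si-WDR5-3 (1.57% of all genes). The list had medians of 1.03 and 1.04 times. Of 18 further matrix glycoproteins and proteoglycans and of 8 genes of hyaluronan synthesis, turnover and receptors, 0 met the limit with either siRNA. The shares of all genes were 5.00% higher and 3.35% lower with si-WDR5-2, and 2.34% and 1.57% with si-WDR5-3. Medians were 0.963 and 0.995 times for the former list and 0.927 and 1.00 times for the latter. COL23A1 and SEC23A were named after their values were seen.

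On the same arrays the interferon-induced genes differed in direction between the siRNAs. Of 26 past the filter, 26 were higher than the control after si-WDR5-2 but 0 after si-WDR5-3. The medians were 3.58 and 0.676 times. The 19 proliferation genes had medians of 0.628 and 0.856 times. The part of either in the matrix values was not tested.

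**Figure D5:**
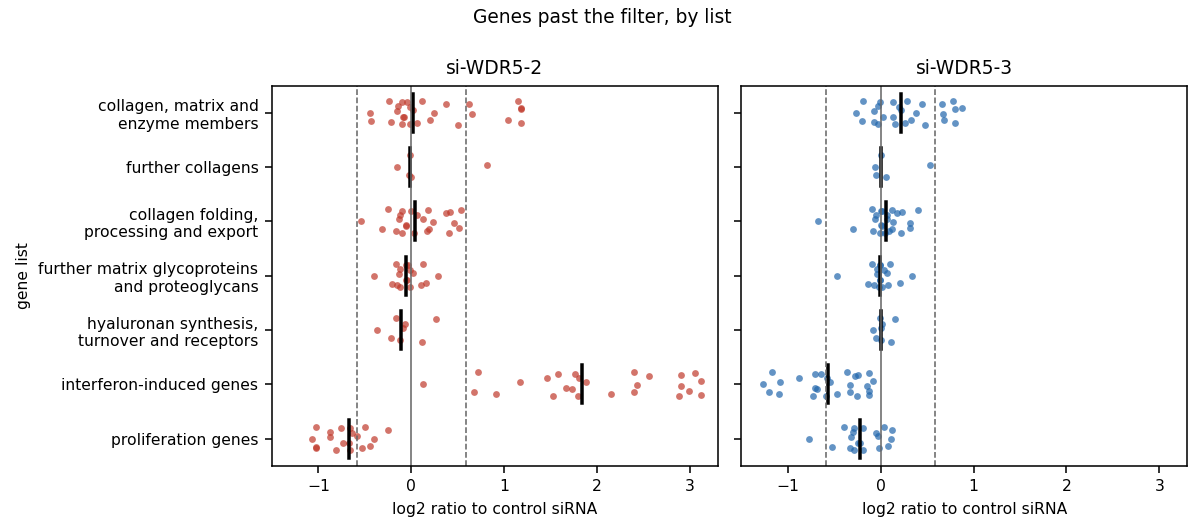
Log2 ratio to control siRNA of each gene past the filter, 1 point per gene, for the 27 members and 6 other lists, with si-WDR5-2 on the left and si-WDR5-3 on the right. Black bars are list medians and dashed lines mark 1.5 times in either direction. The members include genes past 1.5 times in both panels, while the interferon-induced genes lie to the right with si-WDR5-2 and to the left with si-WDR5-3.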

How the data were processed

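UM-UC-3 cells were profiled on 3 Affymetrix PrimeView arrays, 1 each for control siRNA, si-WDR5-2 and si-WDR5-3, grouped by sample title. The authors scanned the arrays, analyzed them with GCOS 1.4, and deposited linear intensities for 49293 probe sets. No source used here gives the background correction, summarization or normalization. Array medians were nearly equal, so no further scaling was applied, and log2 was taken without an offset.

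Of the probe sets, 45064 carry 1 gene symbol in the platform annotation, 1756 several and 2473 none. The filter at the median mean intensity kept 24647. Gene values are medians over kept probe sets with 1 symbol, and the range over probe sets measures the probes, not the cells. The limit was 1.5 times in either direction. No test of a condition was made in the main analysis. limma 3.58.1 (R 4.3.3, lmFit, eBayes with a trend, Benjamini-Hochberg) with both siRNA arrays as knockdown, 1 residual degree of freedom and the lone control assumed to vary like them, was an alternative only. Calculations used Python 3.11.15, pandas 2.3.3 and numpy 2.4.6, and were tested on simulated data. Alternatives were scaling, filter, offset, probe set choice and threshold. Every member was named. From other lists, genes past the limit with both siRNAs would have been named, and there were 0. The members and lists were chosen with earlier results of these data known. Promoters of 29 members matched RefSeq (GRCh38.p14).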

Additional observations from a re-analysis of the deposited data

Results flagged for a closer look

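For COL13A1 and P4HA2 the siRNAs differed from each other by at least 1.5 times, one array lying above the control and the other below it. The log2 difference, si-WDR5-2 minus si-WDR5-3, was -0.75 for COL13A1, whose ratio with si-WDR5-2 was within 1.1 times of the control, and -0.72 for P4HA2, which rests on 1 probe set. The interferon-induced genes had a median log2 ratio to the control of 1.84 for si-WDR5-2 but -0.57 for si-WDR5-3. None of these differences was tested, because each siRNA has 1 array.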

How the results depend on the processing

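No paired analysis was possible because each condition has 1 array. Median centring and quantile normalization left all counts of members and the 6 genes past the limit with both siRNAs as reported, and moved the median of all genes by less than 0.1 (log2). Percentages in brackets are the shares of all genes under the same setting. The count of members past 1.5 times on both siRNA arrays was 1 of 36 without the filter (0.512%). It was 2 of 35 with the filter at the 25th percentile (COL5A1 and COL4A5, 0.713%) and 2 of 13 at the 75th (2.23%). With an offset of 84.8 before log2 it was 3 of 27 (COL4A1, COL4A5 and POSTN, 0.574%). At a threshold of 2 times it was 0 (0.148%). With si-WDR5-2 the count was 2 instead of 7 with the filter at the 75th percentile (7.57%). With the filter on the control array alone it was 4 (4.55%). With si-WDR5-3 the count was 2 without the filter (1.01%), 3 at the 25th percentile (1.36%) and 2 at the 75th (3.94%). It was 3 with the offset (1.28%) and 0 at 2 times (0.322%). The count lower with si-WDR5-2 than with si-WDR5-3 was 1 at the 75th percentile (4.94%) and with the offset (1.79%), both times P4HA2. It was 0 at 2 times (0.530%). The median log2 ratio of the members with si-WDR5-2 was 0.11 at the 75th percentile. With si-WDR5-3 it was 0.14 at the 25th percentile, 0.15 with the filter on the control array and 0.11 without the filter. The log2 ratio of COL4A6 with si-WDR5-2 was -0.12 with the filter on the control array, where 1 probe set remained. The brightest probe set gave 6 genes with COL4A6 in place of COL5A1 (1.74%). The filter on the control array and the leaving out of probe sets with IDs ending in _x_at, some of whose probes match other sequences, were chosen after seeing the data. Fewer probe sets pass a stricter filter, and a looser one brings in dim probe sets. By arithmetic, an offset draws ratios toward 1, and a higher threshold cannot be met by more genes. The cause of the other changes was not tested. The number of arrays and the low intensities of the 6 genes limit these values.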
